A study of Mus musculus with 24 samples.

Results

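Chromatin accessibility was described at 9 genes that encode transcription factors of the naive pluripotency network of mouse embryonic stem cells. The members were fixed by name: Klf2, Klf4, Klf5, Esrrb, Tfcp2l1, Tbx3, Nr5a2, Prdm14 and Zfp42, which are 9 of the 21911 protein-coding genes of GENCODE vM21. For each, the peaks within 1 kb of an annotated transcription start and those in the gene body with 80 kb on either side (the locus) were read from the deposited lists. The assay was ATAC-seq, in which a transposase cuts accessible DNA, so a peak marks a stretch that was cut more often than its surroundings. All 24 libraries came from E14, an established mouse embryonic stem cell line, carrying CTCF fused to an auxin-inducible degron (CTCF AID), a tag through which the auxin IAA triggers degradation of the protein.

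The 12 groups held 2 libraries each. The first 4 groups were an overexpression control line untreated, the same line given IAA for 12 h, and 2 lines with overexpressed CTCF, wild type in one and mutated in the other, also given IAA for 12 h. The labels do not say what the mutation changes. CTCF AID cells without IAA received the control hairpin shluci, Chd4 shRNA1 or Chd4 shRNA2 in one set, and shluci, Chd8 shRNA1 or Chd8 shRNA2 in another. The last 2 groups were CTCF AID cells in the serum condition, untreated or given IAA for 12 h. The growth protocol given for every library names a serum-free medium with LIF, the MEK inhibitor PD0325901 and the GSK3 inhibitor CHIR99021, although 4 libraries are labelled as serum. Those 4 also lack the overexpression control construct, so the medium, the line and the set cannot be told apart. Nothing in the labels says that replicates were separate cultures, so every p-value here measures the spread between these samples, which may be technical.

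In mouse embryonic stem cells, LIF acts through STAT3, and inhibition of MEK and GSK3 holds the cells in the naive state. Klf4 and Tfcp2l1 are targets of STAT3, Esrrb is derepressed when GSK3 is inhibited, and Klf2, Klf5, Tbx3, Nr5a2 and Prdm14 each support self-renewal or block differentiation. Zfp42 (Rex1) is a widely used marker of the naive state. Cells kept in serum and LIF without the inhibitors are known to be more heterogeneous in several of these factors. CTCF is a zinc finger protein that holds chromatin loops in place, CHD4 is the remodelling subunit of the NuRD complex, and CHD8 is another remodeller of the same family.

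Klf2 lies on chromosome 8 at 72319033-72321656, Klf4 on chromosome 4 at 55527143-55532466, Klf5 on chromosome 14 at 99298691-99315036 and Esrrb on chromosome 12 at 86361117-86521628. Tfcp2l1 lies on chromosome 1 at 118627945-118685168, Tbx3 on chromosome 5 at 119670669-119684724, Nr5a2 on chromosome 1 at 136842571-136960448, Prdm14 on chromosome 1 at 13113457-13127163 and Zfp42 on chromosome 8 at 43295063-43306980. All positions are those of mm10. The loci spanned 162.6 kb at Klf2 to 320.5 kb at Esrrb. Peak summits of all 24 lists were merged into 233707 windows of equal length, each called by at least 2 libraries, and 531 of these windows lay in the 9 loci.

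The sequences below were chosen after their calls were seen, because the results turn on them. All are the plus strand of GRCm38, read 5′ to 3′. The first is from the Klf5 start window, which was without a call in all 4 Chd4 shRNA libraries, and its capitals mark overlapping GC boxes, the letters GGGCGG on the minus strand. The second is from an intergenic window at −13868 bp from the Zfp42 start, called in all 24 libraries, with the STAT motif TTCCNGGAA in capitals. The next 6 are from windows called in all 4 serum-free control line libraries and in none of the 4 serum libraries, and the capitals mark CAAGGTCA, the motif of the nuclear receptors ESRRB and NR5A2, or its reverse complement. The last 2 hold the CTCF consensus in capitals, and are from windows lost with IAA.
Klf5 chr14:99298379-99298494: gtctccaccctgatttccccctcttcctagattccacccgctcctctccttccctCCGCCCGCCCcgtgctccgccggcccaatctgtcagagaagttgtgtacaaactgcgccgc
Zfp42 chr8:43320598-43320677: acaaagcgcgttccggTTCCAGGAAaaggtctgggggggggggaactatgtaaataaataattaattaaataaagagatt
Zfp42 chr8:43352398-43352489: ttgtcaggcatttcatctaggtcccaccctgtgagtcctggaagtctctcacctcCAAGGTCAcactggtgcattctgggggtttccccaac
Klf2 chr8:72349083-72349200: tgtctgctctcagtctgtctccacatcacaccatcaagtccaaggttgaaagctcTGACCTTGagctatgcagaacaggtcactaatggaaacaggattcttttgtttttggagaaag
Tfcp2l1 chr1:118663194-118663311: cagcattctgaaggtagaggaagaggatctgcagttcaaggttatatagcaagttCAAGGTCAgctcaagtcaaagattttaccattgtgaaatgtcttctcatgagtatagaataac
Prdm14 chr1:13076415-13076532: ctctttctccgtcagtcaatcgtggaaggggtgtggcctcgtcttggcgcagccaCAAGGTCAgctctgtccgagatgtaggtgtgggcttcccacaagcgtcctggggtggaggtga
Tbx3 chr5:119713136-119713253: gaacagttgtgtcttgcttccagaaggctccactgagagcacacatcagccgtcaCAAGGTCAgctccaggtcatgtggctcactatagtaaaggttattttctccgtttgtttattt
Nr5a2 chr1:136859650-136859767: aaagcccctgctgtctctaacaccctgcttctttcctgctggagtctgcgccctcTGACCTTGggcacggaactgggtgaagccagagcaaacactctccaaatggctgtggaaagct
Klf4 chr4:55451175-55451298: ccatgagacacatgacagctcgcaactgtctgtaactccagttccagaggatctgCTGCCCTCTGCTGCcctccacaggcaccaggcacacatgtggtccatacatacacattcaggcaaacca
Esrrb chr12:86402870-86402993: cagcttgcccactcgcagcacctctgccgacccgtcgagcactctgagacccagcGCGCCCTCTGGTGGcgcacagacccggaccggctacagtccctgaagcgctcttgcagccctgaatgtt
A match to letters is a description of the sequence and not evidence that the factor binds. Both strands were searched throughout. GGGCGG was held by 85 of the 531 member windows (16%) and by 20% of all windows. At starts it was held by 13 of the 24 member windows (54.2%) and by 50.1% of the 38015 windows within 1 kb of any annotated start. CAAGGTCA was held by 47 of the 531 member windows (8.85%) and by 5.96% of all windows.

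Among the 8 CTCF line libraries the deposited lists were 120137 to 155087 peaks long. Those with Chd4 hairpins and their controls had 80619 to 141742, those with Chd8 hairpins and controls 135410 to 166697, and the serum libraries 59786 to 82502. Each list was reduced to the length of the shortest list of its set by the deposited −log10 p, so that a library's number of calls was fixed within a set. The median peak width was 283 to 456 bp for the CTCF lines and 371 to 417 bp for serum. It was narrower for the Chd4 libraries, at 80 to 135 bp, as for the Chd8 libraries, at 75 to 138 bp. Sequencing depth is not given by these files, and a missing call says only that a place did not reach the list. In bulk samples, fewer accessible cells and less accessibility per cell cannot be told apart. The lists hold no RNA or protein measurement, so neither the hairpins nor the degradation of CTCF is checked by them. Starts of 6 embryonic stem cell markers (Pou5f1, Sox2, Nanog, Dppa5a, Tdh and Fgf4) were called in 16 to 24 of the 24 libraries. Of 6 fibroblast markers, Col3a1 and Postn had a call in none, and the other 4 were called in 17 to 24, so a call at a start does not by itself separate these cell types.

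The member starts were open in most libraries. A peak within 1 kb of a start was called for Esrrb, an orphan nuclear receptor, and for Nr5a2, another, in all 24 libraries. Klf2 and Tfcp2l1, the latter a grainyhead family factor, were called in 23, and Tbx3, a T-box factor, and Zfp42, a zinc finger protein, in 22. Prdm14, a PR domain protein that restrains FGF signalling and DNA methylation, was called in 21, Klf5 in 20 and Klf4 in 17. Over all protein-coding genes, 24% had a start called in all 24 libraries and 76.9% in at least 1. Of the 216 pairs of member and library, 196 had a call.

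The position of the best start peak in its library's list, as a percentile of the −log10 p (100 being the top), differed between members. In the 8 CTCF line libraries the Klf5 start was at at least 99.7 and the Zfp42 start at 99.0 to 99.8. Klf2 was at 95.2 to 97.7, Esrrb at 90.7 to 96.5 and Tbx3 at 90.0 to 96.2. Klf4 lay lower, at 73.5 to 84.7, as did Tfcp2l1 at 77.8 to 87.8, Nr5a2 at 73.9 to 84.9 and Prdm14 at 71.8 to 80.5. The ranges of Klf5 and Zfp42 lay above those of all the other members, whereas the 4 lower members overlapped one another. The authors' fold enrichment of the Klf5 start peak was 12.6 to 19.3 in these 8 libraries.

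**Figure D1:**
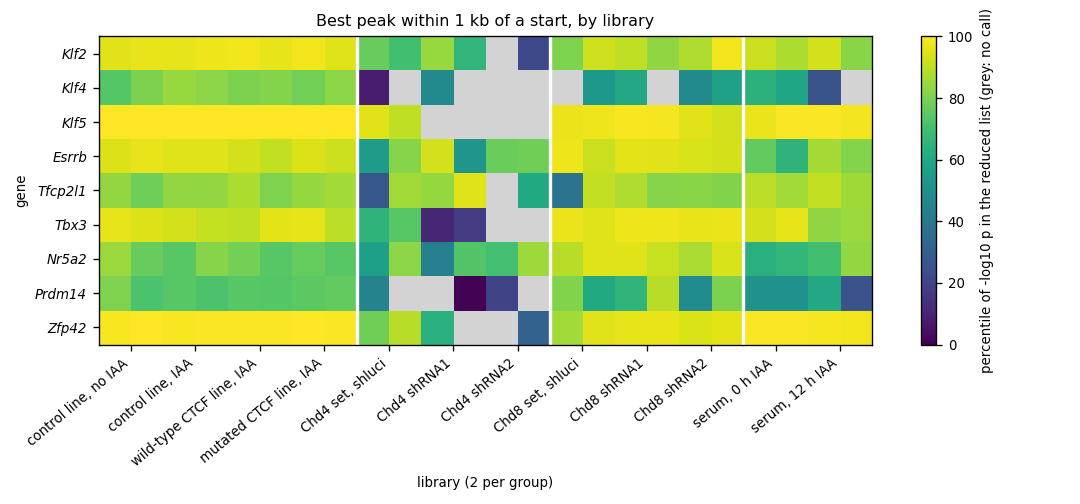
Percentile of −log10 p of the best peak within 1 kb of a start (colour, 0 to 100) for each member (rows) in each of the 24 libraries (columns, 2 per group), grey where no peak was called. Klf5 and Zfp42 stand at the top of the CTCF line lists, and the grey cells lie in the Chd sets apart from Klf4 in 1 serum library.

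All 9 starts were called in each of the 8 CTCF line libraries, with or without IAA, beside 69.1 to 70.4% of all protein-coding starts. In the 6 Chd8 set libraries 8 or 9 were called, beside 61.1 to 66.0%, and Klf4 was the member without a call in 2 of them. In the others its best peak had its summit at 912, −845, 932 or 914 bp from the start. The Klf4 window at −70 bp was called in no library of the Chd4 or Chd8 sets, controls included. Within 500 bp of a start Klf4 was called in 11 libraries in all. In serum, 8 or 9 members were called, beside 64.8 to 65.8%, with Klf4 missing in replicate 2 at 12 h of IAA. In the Chd4 set the shluci libraries called 9 and 7 members. The Chd4 shRNA1 libraries called 7 and 6, and the shRNA2 libraries called 3 and 5. Replicate 1 of shRNA2, with 3 members, also called the fewest starts over all protein-coding genes, 40.1%, against 54.0 and 54.9% in shluci.

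Serum against serum-free medium was the contrast in which the largest share of member windows differed. For this contrast all 8 lists were reduced to 59786 peaks, the length of the shortest. At Tfcp2l1, the locus held 18 and 19 peaks in the control line without IAA and 18 and 17 with IAA. It held 9 and 9 in serum without IAA, and 6 and 12 with IAA. The serum libraries were all lower and the groups did not overlap, with means of 18 ± 0.816 and 9 ± 2.45 (SD, n = 4 each, two-sided exact permutation p = 0.0286). At Nr5a2 the serum-free counts were 19, 19, 17 and 19 and the serum counts 11, 11, 9 and 11, with means of 18.5 ± 1 and 10.5 ± 1 and the same exact p of 0.0286. At Esrrb the serum-free counts were 26, 29, 26 and 31 and the serum counts 20, 20, 18 and 21. Its means were 28 ± 2.45 and 19.8 ± 1.26, again without overlap (exact permutation p = 0.0286). At Klf2, a Krüppel-like factor, the serum-free counts of 14, 16, 15 and 13 stood above the serum counts of 12, 11, 11 and 10 (14.5 ± 1.29 against 11 ± 0.816, exact permutation p = 0.0286).

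The other 5 members overlapped between the media. Klf4 held 10, 13, 9 and 9 peaks in serum-free medium and 9, 6, 7 and 7 in serum (exact permutation p = 0.0857). Prdm14 held 16, 18, 15 and 18 against 12, 15, 13 and 13 (exact permutation p = 0.0571). Klf5 held 19 to 22 against 17 to 19, Tbx3 9 to 11 against 6 to 12, and Zfp42 14 to 15 against 12 to 15. These 3 had exact permutation p-values of 0.0857, 0.771 and 0.629.

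In all, 4 of 9 members were lower in serum without overlap and 0 were higher. Over the 20788 protein-coding genes tested, 10.6% of loci were lower without overlap and 14.2% were higher. The members' median difference was −3.5 peaks, beside 0.25 over all genes. Relative to the serum-free mean the median change was −24.1% for the members and 2.94% over the 20294 loci with a serum-free peak. With 4 libraries against 4 the exact p cannot go below 0.0286, and after Benjamini-Hochberg adjustment over all genes tested the smallest value was 0.115, so no member passed. The members' count depended on the list length. With the lists as deposited, in which the serum lists are shorter, 8 members were lower, and with lists reduced further to 50%, 2 were (Esrrb and Tfcp2l1). The shares over all loci above are for lists of 59786 peaks only, so these 2 counts have no share beside them.

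**Figure D2:**
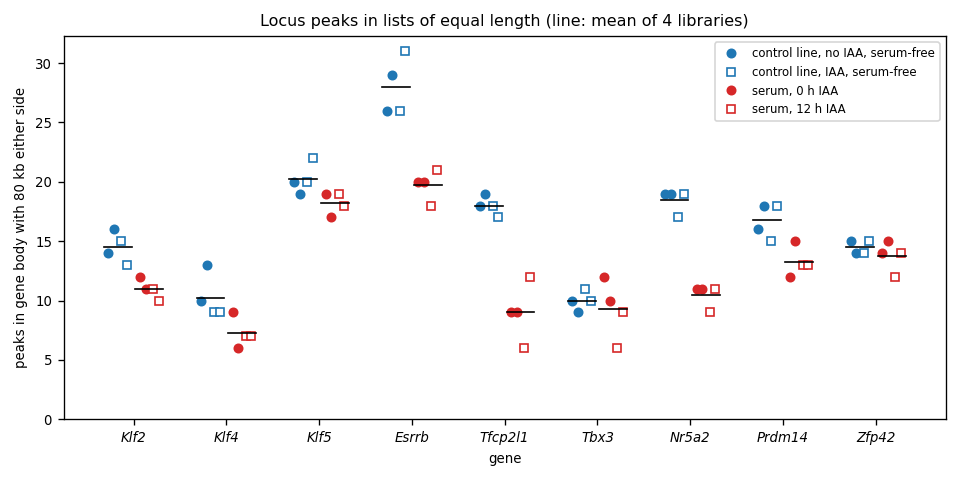
Peaks in the gene body with 80 kb either side (y axis, count) for the 9 members (x axis) in the 4 serum-free control line libraries (blue) and the 4 serum libraries (red), filled without IAA and open with 12 h of IAA. Lines are means of 4, and the 2 colours do not overlap at Klf2, Esrrb, Tfcp2l1 and Nr5a2.

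The windows gave the places. A window was counted as lost where every library of the reference group and none of the other group called it, and as gained in the opposite case. Tested windows were those called by any of the libraries compared. Without IAA, serum lost 66 and gained 15 of 271 tested member windows, or 24.4% and 5.54%, beside 16.9% lost and 8.35% gained over all windows. With IAA, serum lost 67 and gained 10 of 263, or 25.5% and 3.8%, beside 16.2% and 9.63% over all windows. The deposited lists, shorter in serum, gave 178 lost and 3 gained without IAA, and 134 and 1 with IAA. With lists of 50% these were 30 and 10, and 35 and 12. The shares over all windows above are for lists of 59786 peaks only. The libraries of these 2 comparisons are different. The 2 sets of lost windows shared 47, which is 71.2% of the first and 70.1% of the second, beside 58.4% and 58.9% for all windows. Thus 47 member windows were called in all 4 serum-free libraries and in no serum library, 3 in the opposite pattern, and 64 in all 8. Over the genome these were 11461, 4544 and 35712.

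Nr5a2 held 12 of the 47 and Esrrb 10, with 5 each at Klf5, Tfcp2l1 and Prdm14, 4 at Klf2, 3 at Tbx3, 2 at Zfp42 and 1 at Klf4. At Nr5a2 only 3 windows were called in all 8 libraries. Without IAA, 15 of its 32 tested windows were lost in serum and 3 were gained. They lay upstream of the gene at −43331, −42755, −20276, −17383 and −12519 bp, in its body, and beyond its 3′ end. Another was at a start, at −155 bp, and was called in all 8 CTCF line libraries and in none of the other 16. Nr5a2 nevertheless kept a call within 1 kb of a start in every serum library, at a percentile of 63.5 to 83.6.

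**Figure D3:**
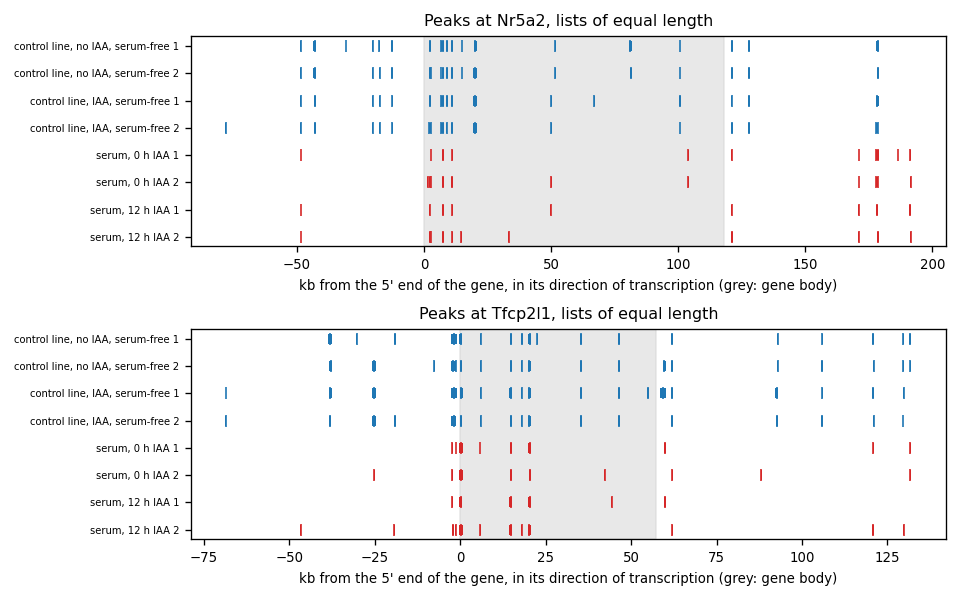
Peaks (ticks, drawn to scale with a marker at each centre) at Nr5a2 and Tfcp2l1 in the 4 serum-free (blue) and 4 serum (red) lists of equal length, by distance in kb from the 5′ end of the gene. At Nr5a2 the ticks upstream of the gene between about 10 and 45 kb are present in the blue rows and missing in the red rows.

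Esrrb lost 15 of 54 windows without IAA, most of them in its own introns. Windows −19217, −15003, −6847 and −5745 bp from the nearest start, and one at 27100 bp, were lost in both comparisons. Tfcp2l1 lost 8 of 29 without IAA and gained 0. Its lost windows included 2 in its introns, at 35190 and 46397 bp, and 2 beyond its 3′ end, at 92910 and 105820 bp, in both comparisons. In lists of equal length the best Tfcp2l1 start peak stood at percentiles of 67.7, 55.4, 67.5 and 67.0 in serum-free medium and at 89.7, 86.2, 90.9 and 85.7 in serum. The 4 serum values were all above the 4 serum-free values. Its summit was −84 bp from a start in the 4 serum-free libraries, −85 and −84 bp in serum without IAA, and 206 and 41 bp in serum with IAA. The percentiles of the best Esrrb start peak were 89.3, 92.9, 90.0 and 90.5 in serum-free medium and 76.0, 65.2, 86.4 and 81.6 in serum. These do not measure 1 place. The summit of that peak was 1013 to 1028 bp from a start in serum-free medium, and at 968, −9, 2 and −5 bp in serum.

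The widths of the peaks bear on some of these windows. The Klf5 window at −20 bp from a start had the highest percentile among the windows lost in serum, but its neighbour at −107 bp was called in all 8 libraries. The Klf5 start peak was 664 to 1092 bp wide in the 4 serum-free lists and 415 to 492 bp in serum. The Esrrb window at −26770 bp, the next in rank, likewise adjoined one at −26123 bp called in all 24 libraries. Of the 66 member windows lost without IAA, 12 were called by a serum-free peak that also overlapped a serum peak, and of the 67 lost with IAA, 8 were. This was 18.2% and 11.9% of them, beside 15.6% and 14.8% for all lost windows. Leaving them out, 19.9% and 22.4% of tested member windows were lost, beside 14.2% and 13.8% over all windows. None of the 15 lost windows at Nr5a2 was of that kind.

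The losses were spread over annotation classes. Without IAA, serum lost 32 of 99 intronic member windows, 26 of 123 intergenic ones and 3 of 21 at member starts. Some of the lost places were called in the Chd sets, whose labels carry no mention of serum. Both Chd8 shluci libraries called 41 of the 66 (62.1%, beside 50.5% of all windows lost in serum), and both Chd4 shluci libraries called 21 (31.8%, beside 36.4%). The reduced lists of these sets were longer, at 135410 peaks for Chd8 and 80619 for Chd4, than the 59786 of the serum contrast.

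The letters CAAGGTCA were in 11 of the 66 member windows lost in serum without IAA (16.7%), beside 8.99% of all windows so lost and 5.96% of all windows. The 11 lay at 8 members and were all called by each of the 8 CTCF line libraries and by no serum library. For 10 of the 11 the serum-free peak overlapped no serum peak. The 2 called most widely, at −45259 bp from the Zfp42 start and at 30048 bp from the Klf2 start in an intron of Eps15l1, were each called by 19 of 24 libraries. They missed the 4 serum libraries and replicate 1 of Chd4 shRNA2. The gained windows held the motif at 3 of 15 (20%), beside 2.81% of all gained windows. The member share was the larger in both directions, but the gained one rests on 3 windows and neither difference was tested. The KLF motif CCACACCC was in 10 of the 66 (15.2%, beside 9.48% of all lost windows). The STAT motif was in 0 of the 66, beside 2.16% of all lost windows and 2.64% of all member windows. The TFCP2L1 motif was in 3 (4.55%, beside 7.67% of all lost windows). The octamer ATGCAAAT was in 3 (4.55%, beside 4.93%) and the T-box motif TCACACCT in 3 (4.55%, beside 2.86%). The PRDM14 motif GGTCTCTAA was in 0, beside 0.372%.

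Other genes of the network were read in the same lists of equal length. Of 15 genes of the LIF and naive network (Lifr, Il6st, Jak1, Stat3, Socs3, Gbx2, Dppa3, Dppa5a, Tcl1, Fgf4, Sall4, Tcf7l1, Pou5f1, Sox2 and Nanog), 3 loci were lower in serum without overlap and 2 higher, where 10.6% and 14.2% of all loci were. Those lower were Lifr, the LIF receptor (13.8 to 9.5 peaks on average), Jak1 (8.25 to 4) and Tcf7l1 (42 to 30.5). Those higher were Stat3 (8.25 to 13.8) and Pou5f1 (14.2 to 18.5), and the list's median difference was −0.7. Of 7 genes of the formative and primed states, 5 loci were higher in serum and 0 lower, with a median difference of 3.75. Fgf5, a marker of primed cells, went from 4.75 to 8.5, Pou3f1 from 8 to 15.5, and the DNA methyltransferase gene Dnmt3a from 15 to 22.2. Dnmt3b (13.5 to 16.8) and Zic2 (11.2 to 15.8) were the other 2, and Otx2 and Lef1 overlapped. These calls rest on the list length, and the 10.6% and 14.2% above are for the lists of 59786 peaks only. With the deposited lists, shorter in serum, 13 loci of the first list and 4 of the second were lower and 0 of either higher. With lists of 50% the first list had 2 lower and 1 higher, and the second 0 lower and 1 higher. Of 6 neural marker genes (Pax6, Sox1, Neurog2, Tubb3, Map2 and Olig2), 2 loci were higher and 0 lower in lists of equal length, with a median difference of 2.62. This became 0 higher and 3 lower with the deposited lists, and 1 higher and 0 lower with lists of 50%. No share over all loci is given at those lengths. In lists of equal length, 6 mesoderm and endoderm markers (T, Eomes, Gata4, Gata6, Sox17 and Foxa2) had 0 loci higher and 1 lower (median difference 1.38). The 6 fibroblast markers also had 0 higher and 1 lower (−1.12). The 6 embryonic stem cell markers had 1 higher and 0 lower (0.775).

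The Chd4 hairpins came with fewer peaks at most members. At Esrrb the shluci libraries held 44 and 38 peaks in lists of 80619, and the 4 shRNA libraries 29, 25, 17 and 21. At Klf5 the counts were 34 and 31 against 19, 14, 18 and 19. At Klf2 they were 28 and 20 against 16, 16, 8 and 16. The groups did not overlap at these 3, nor at Klf4 (15 and 13 against 11, 7, 5 and 11), Tfcp2l1 (27 and 24 against 21, 23, 18 and 23) and Nr5a2 (20 and 20 against 16, 13, 18 and 13). They overlapped at Tbx3, Prdm14 and Zfp42. So 6 of 9 members were lower and 0 higher, beside 29.5% lower and 8.48% higher of 21178 protein-coding loci. The members' median difference was −5.5 peaks, beside −1.5 over all genes, from loci that held a median of 22.5 peaks in shluci at the members and 10 over the 20534 genes with a shluci peak. Relative to the shluci mean the median change was −39.3% for the members and −19.8% for those genes. Klf5 and Esrrb were lower also with the deposited lists and with lists of 50%. Klf2 and Nr5a2 overlapped under both of these, and Klf4 and Tfcp2l1 with the deposited lists. Tbx3 and Prdm14 were lower under both, and Zfp42 with the deposited lists.

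For 2 libraries and 4, no two-sided exact p can be below 0.0667, which Klf2, Klf5 and Esrrb reached and which became 0.24 after adjustment, so no member can pass. The share of all protein-coding starts called was also lower in these libraries, at 40.1 to 48.0% against 54.0 and 54.9% in shluci, and its part in the members' counts was not tested. Without replicate 1 of shRNA2, the library lowest in that share, 7 members were lower without overlap. The share of all loci given above is for all 4 shRNA libraries, and fewer libraries loosen the call at every locus.

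**Figure D4:**
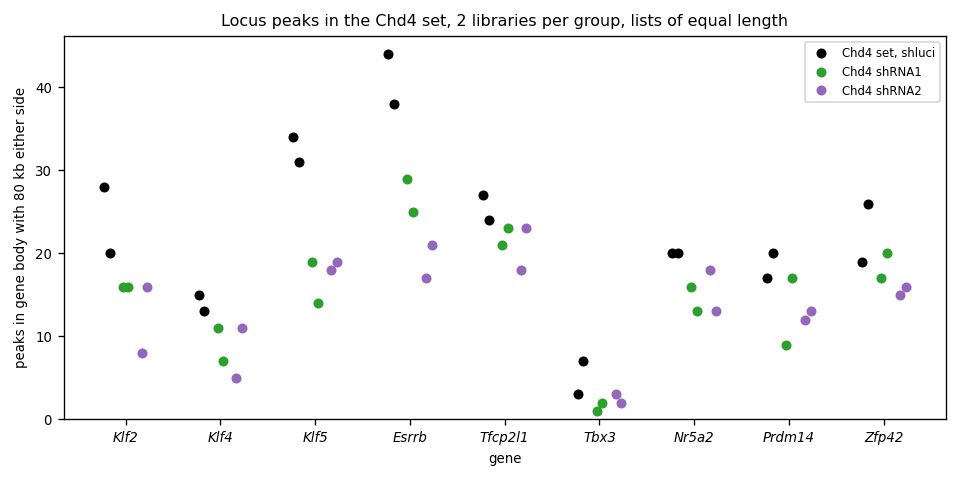
Peaks in the gene body with 80 kb either side (y axis, count) for the 9 members (x axis) in the Chd4 set, 2 libraries each for shluci (black), shRNA1 (green) and shRNA2 (purple). At Klf5 and Esrrb all 4 shRNA libraries lie at least 9 peaks below both shluci libraries.

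The Klf5 start was the one member start lost in any of the 8 comparisons. It was called in both shluci libraries, at percentiles of 95.4 and 90.5, and in none of the 4 Chd4 shRNA libraries, even in the lists as deposited. With both Chd4 shRNAs 3.14% of the starts of protein-coding genes were lost in this way, 465 of 14807. The start was called in the other 20 libraries, Chd8 hairpins included. Its peak in the Chd4 shluci libraries covered 232 and 273 bp, with summits at −256 and −250 bp from the start. Tbx3 had start peaks at percentiles of 65.2 and 74.2 in shluci, 10.9 and 17.9 with shRNA1, and no call with shRNA2. In the other comparisons between 0.27 and 3.6% of protein-coding starts changed in 1 direction, and no member start did.

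By window, the Chd4 shRNAs lost 25 and gained 1 of 302 tested member windows (8.28% and 0.331%), beside 4.73% and 1.98% over all windows. With a cover of at least 50% of the window 8 were lost and 0 gained. Klf5 held 8 of the 25 and Esrrb 4. Those with the highest percentiles in shluci were the Klf5 start, a window at −1267 bp from the Tfcp2l1 start and one at −2730 bp from the Klf2 start. The Klf2 window was called in the other 20 libraries, and the Tfcp2l1 window in 18, missing 2 serum libraries as well. The gained window lay in an intron of Clasp1, at −38299 bp from the Tfcp2l1 start. It was called in all 4 Chd4 shRNA libraries, in neither shluci library of that set and in no serum library, and in each of the other 14. Only 3 of the 25 were also lost in serum without IAA, 12% of the 25 and 4.55% of the 66. Over all windows these shares were 17.7% and 5.98%.

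With the Chd8 shRNAs the members changed about as often as other windows. They lost 6 and gained 3 of 450 (1.33% and 0.667%), beside 1.3% and 0.712%. The locus count was lower without overlap at Esrrb, with 73 and 75 peaks in shluci and 62, 69, 68 and 59 with the shRNAs. It was higher at Tbx3, with 13 and 14 against 20, 16, 18 and 18. Esrrb stayed lower with the deposited lists and with lists of 50%, and Tbx3 overlapped under both. Klf2 and Klf4 were lower with lists of 50%. Over all protein-coding loci 5.17% were lower and 4.88% higher.

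With IAA no member start lost or gained its call within 1 kb in either medium. Of the single windows at member starts, 2 of 22 were gained in serum-free medium, at Esrrb (−516 bp) and Tbx3 (−995 bp), and 1 of 17 was lost in serum, at Prdm14 (−904 bp). In serum-free medium IAA lost 15 and gained 25 of 455 member windows (3.3% and 5.49%), beside 4.42% and 3.66% over all windows. The balance turned with the list length, at 17 lost and 15 gained with the deposited lists and 18 and 14 with lists of 50%. Klf5 held 5 of the 15, and Esrrb 6 of the 25. The strongest lost window lay in a coding exon of Klf5, 2574 bp past the start. Next came an intergenic window 50565 bp downstream of a Tbx3 start, which was called in both libraries without IAA, in neither with IAA, and again in both wild-type and both mutated CTCF line libraries with IAA. The strongest gained window was at −516 bp from an internal Esrrb start. It was called in both IAA libraries of the control line and in neither without IAA, and also in all 4 serum libraries, where it counted as gained against serum-free medium without IAA.

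By locus count in serum-free medium, IAA came with more peaks at Klf2 (31 and 28 to 36 and 32) and Zfp42 (25 and 23 to 26 and 28). It came with fewer at Klf5 (41 and 41 to 36 and 37). With the deposited lists Klf5 stayed lower and Klf2 and Zfp42 overlapped, and with lists of 50% all 3 overlapped. Klf4 was lower under both of these settings. Over all loci 13.7% were higher and 15.6% lower without overlap, and 2 libraries against 2 allow no exact p below 0.333. In serum, 1 member was lower, Tbx3 (12 and 10 to 6 and 9), where 17.8% of all loci were lower and 8.39% higher. It overlapped with the deposited lists (14 and 10 to 8 and 14) and with lists of 50%. Klf4 was higher with the deposited lists, and Klf2 and Klf4 were lower with lists of 50%. In serum 12 h of IAA lost 15 and gained 5 of 208 member windows (7.21% and 2.4%), beside 4.5% and 4.94%. With the deposited lists 14 were lost and 11 gained, with lists of 50% 12 and 8, and with a cover of at least 50% of the window the balance turned, to 6 and 11. Esrrb held 5 of the 15 and Klf2 4. Between the media 2 lost windows were shared, 13.3% of each, at Zfp42 (20693 bp) and Esrrb (38454 bp), where over all windows 18.5% and 32% were.

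The CTCF consensus, with at most 1 mismatch, was in 14 of the 531 member windows (2.64%), beside 5.57% of all windows. Over the genome, 34.8% of consensus windows called by both serum-free libraries without IAA were lost with IAA, against 4.75% of those without the consensus. At the members, 1 of 9 was lost, in an intron of Gm12510, 81139 bp downstream of the Klf4 start at chr4:55451077-55451577. It was called in both libraries without IAA, in neither with IAA, and in 1 wild-type line library and 4 Chd8 set libraries. In serum 1 of 2 was lost, at chr12:86402752-86403252 in an intron of Esrrb, with no mismatch, beside 40.8% of consensus windows over the genome and 5.56% of those without it. This window was called by 22 libraries, those of the control line with IAA included, and missed only the serum libraries with 12 h of IAA. No consensus window at the members was lost with IAA in both media. So few member windows hold the consensus that 1 window decides each share.

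Compared with the control line, both after IAA, the line with wild-type CTCF lost 20 and gained 3 of 440 member windows (4.55% and 0.682%), beside 3.22% and 2.99% over all windows. With the deposited lists 9 were lost and 5 gained, and with lists of 50% 9 and 8. The line with mutated CTCF lost 12 and gained 8 of 449 (2.67% and 1.78%), beside 2.43% and 2.84%. With the deposited lists the balance turned, to 4 lost and 13 gained. These comparisons share the control line libraries. Of the 15 member windows lost with IAA, 2 were called by both wild-type line libraries, 3 by both mutated line libraries and 4 by none of the 4, or 13.3%, 20% and 26.7%. Of the 8234 windows so lost over the genome, the same calls were made at 36.6%, 28.1% and 18.2%. The members' shares rest on 15 windows. By locus, Klf4 and Tfcp2l1 were lower in the wild-type line (25 and 24 to 22 and 22, and 45 and 42 to 38 and 39), where 15.1% of loci were lower and 11.8% higher. In the mutated line Tfcp2l1 (36 and 36) and Nr5a2 (37 and 41 to 34 and 36) were lower and Tbx3 was higher (19 and 23 to 26 and 24), beside 12.4% lower and 12% higher. With the deposited lists the Klf4 and Tfcp2l1 calls in the wild-type line and the Tfcp2l1 and Nr5a2 calls in the mutated line ended in overlap. With these lists the wild-type line had 0 members lower and 1 higher (Nr5a2), and the mutated line 0 lower and 4 higher (Klf4, Tbx3, Prdm14 and Zfp42). The deposited lists of these lines held 130363 to 155087 peaks, against 120137 and 128794 for the control line with IAA. The shares of all loci above are for lists of 120137 peaks only. With lists of 50% Tfcp2l1 and Zfp42 were lower and Klf4 and Prdm14 higher in the wild-type line. In the mutated line Klf5 and Zfp42 were lower and Klf4 higher, and the 3 calls above overlapped.

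**Figure D5:**
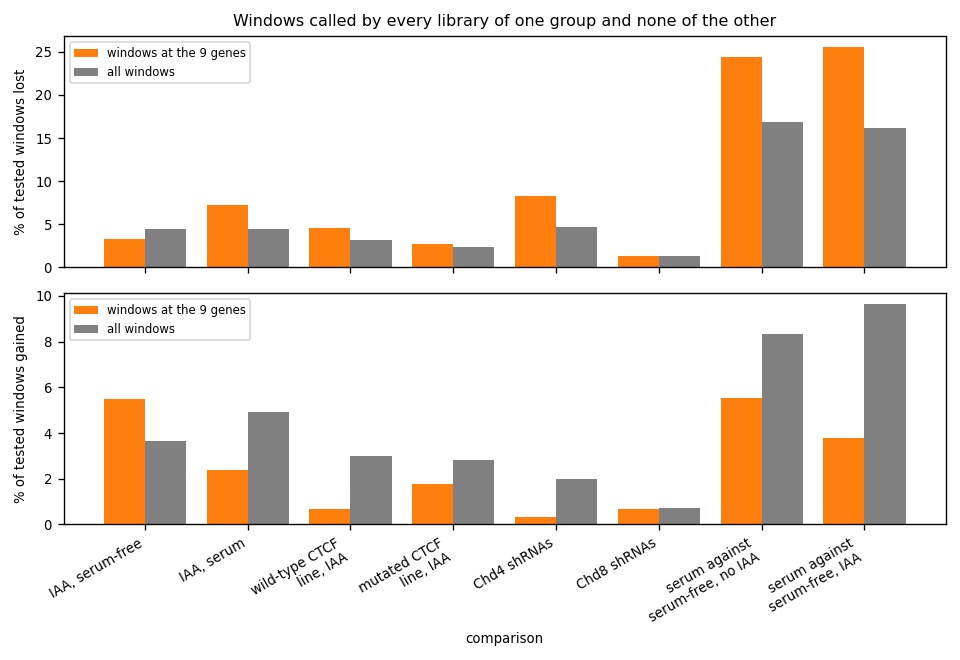
Percent of tested windows lost (top) and gained (bottom) in the 8 comparisons, for windows at the 9 members (orange) and all windows (grey). For losses the orange bar stands above the grey one in every comparison except IAA in serum-free medium (3.3% against 4.42%), by the most in the serum comparisons, at 24.4% against 16.9% and 25.5% against 16.2%, and by little for Chd8 (1.33% against 1.3%) and the mutated line (2.67% against 2.43%).

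Of the 531 member windows, 8 were called by all 24 libraries (1.51%), beside 8691 of 233707 over all windows (3.72%). Klf5 held 3 (25627, 40862 and 41526 bp downstream of its start), with 2 at Klf2 and 1 each at Esrrb, Prdm14 and Zfp42. None was at a member start, and 1 was at the start of Ap1m1, a neighbour of Klf2. The Zfp42 window held the STAT motif shown and 2 KLF motifs. Klf4, Tfcp2l1, Tbx3 and Nr5a2 had none.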

How the data were processed

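The data were the peak lists of 24 libraries, 1 list for each. Per the submitters' processing notes the tools were Trim Galore, Bowtie2, MACS2 and deepTools and the build mm10, with no versions, roles or thresholds given. The deposited columns used were the interval, the summit, the authors' fold enrichment (a ratio) and the authors' −log10 p and q. The −log10 p served only to rank peaks within a list, with ties ordered by fold enrichment. The −log10 q was read only for its lowest value in each list.

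The lists were reduced to equal length within a set. Windows of 501 bp were placed on summits in order of percentile, without overlap, and counted as called where a peak overlapped them. The arithmetic of the change calls was checked on simulated lists, in which planted windows met the definition of lost or gained by construction. Locus counts were compared by exact permutation over libraries with Benjamini-Hochberg adjustment over all genes (Python 3.11.15, numpy 2.4.6, scipy 1.17.1). Annotation came from GENCODE vM21, sequence from RefSeq GRCm38, and 0 peaks lay outside its chromosomes. Replicates shared at most 0.224% of intervals with exactly the same start and end. This was a check for repeated lists and does not measure how far their peaks overlapped.

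The windows named were those at each start with the highest mean percentile, up to 3 lost and 3 gained per comparison by percentile, and CTCF consensus windows; others were named after their values were seen. The members and gene lists were chosen with earlier results of these data known. Alternatives covered list length, window cover, flank, start distance, mismatches and left-out replicates.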

Additional observations from a re-analysis of the deposited data

Results flagged for a closer look

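Groups of 4 libraries were searched for a library apart from the other 3 in the peak count of each member locus, 36 groups in all, of which chance is thought to mark about 1 in 20. There were 4. With the Chd4 shRNAs, Klf2 had 8 peaks in replicate 1 of shRNA2, the library that also called the fewest starts, and 16 in each of the other 3. With the Chd8 shRNAs, Klf5 had 60 peaks in replicate 2 of shRNA1, beside 47, 47 and 49. At Nr5a2 the serum-free control line had 17 in 1 library and 19 in the other 3, and the serum condition had 9 in 1 library and 11 in the other 3. The last 2 are gaps of 2 peaks between otherwise equal counts, and the 2 media still did not overlap there.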

How the results depend on the processing

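Most counts moved with the list length or the window cover, and the cause was not tested. At the other list lengths and covers, no share over all loci or windows is given beside the members' counts. Lists as deposited gave 181 and 135 changed member windows for serum without and with IAA in place of 81 and 77, 14 in place of 23 for the wild-type CTCF line, and 8 members with non-overlapping counts in serum in place of 4, all lower. Lists of 50% gave 40 and 47 changed windows for serum, 13 in place of 20 for the mutated line, 3 in place of 9 for Chd8, and 2 members. A cover of at least 50% of the window gave 26 in place of 40 for IAA in serum-free medium, 14 and 12 for the wild-type and mutated lines, 8 in place of 26 for Chd4 and 5 for Chd8. The 2 CTCF consensus windows lost with IAA became 1 with no mismatch and 11 with at most 2 mismatches. They became 1 with deposited lists, 1 at 50% and 1 with the stricter cover.

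Leaving out 1 library loosens the call, and gave 63 to 79 changed windows for IAA in serum-free medium, 32 to 49 in serum, 48 to 62 for the wild-type line, 45 to 54 for the mutated line, 28 to 50 for Chd4, 11 to 32 for Chd8, and 100 to 113 and 93 to 106 for serum without and with IAA. It gave 4 to 5 members for serum and, in a check chosen after seeing the data, 6 to 9 members lower with Chd4 shRNAs. The locus calls with deposited and 50% lists in the other comparisons and for the other gene lists were also chosen then. The replicate block gives the same counts as the unpaired calls by construction, with 40, 20, 23, 20, 26, 9, 81 and 77 changed windows in the order of the comparisons. Same-numbered replicates did not deviate together (r from −0.132 to 0.129), and the lowest value, between the control line and the wild-type line with IAA, gave the same 23 windows with the numbers crossed. Calls at member starts were 187, 198 and 180 of 216 under the other settings.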
